A study of Homo sapiens with 6 samples.

Results

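The Wnt and beta-catenin target genes examined here are AXIN2, NKD1, NOTUM, RNF43, ZNRF3, LGR5, TCF7, SP5, TBX3 and GLUL. These 10 genes were chosen by their symbols, and each was matched to 1 of the 61541 Ensembl genes in the count table. RNA-seq was performed on HepG2 cells, a human hepatoblastoma line, that carry the ARE-driven luciferase SLR3 and the control luciferase ELuc. Sedanolide is a phthalide of celery, and 3 libraries from cells exposed to it at 100 μM for 24 h were compared with 3 control libraries from the same line. All 6 libraries thus share 1 reporter line, and whether the control cells received the solvent is not given in the sources used here. Nothing states that the replicates came from separate experiments, so that p-values measure the spread between these samples, which may be technical.

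In the Wnt pathway, a secreted Wnt ligand binds a Frizzled receptor together with LRP5 or LRP6 and stops the destruction complex, which otherwise marks beta-catenin for degradation. Beta-catenin then enters the nucleus and switches on genes together with TCF/LEF factors. Many of these targets are brakes on the pathway itself, and their mRNA is commonly used as a readout of its activity. In the liver, the pathway is known for keeping the gene program of hepatocytes around the central vein, of which GLUL is the best known marker. HepG2 cells are known to carry a deletion in CTNNB1, the gene of beta-catenin, that stabilizes the protein, so that the targets are active in this line without added ligand.

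Total expected counts were between 16420258 and 26714853 per library, and the 10 genes had 552 to 12417 counts in each. The libraries fell into 2 sets that cut across the conditions. Principal components were computed from log2 CPM (counts scaled to library size after TMM normalization). Along component 1, with 56.1% of the variance, side A held controls 1 and 2 with sedanolide 3, and side B held sedanolide 1 and 2 with control 3. The share of counts from mitochondrial genes was 1.43% to 2.15% on side A and 4.23% to 5.22% on side B, and its part in the results below was not tested. Values within each side are therefore given for the 10 genes and for some of the genes named outside them. All 10 markers of the hepatocyte lineage had enough counts to be tested, and of 8 markers of other cell types, VWF, COL1A2, LUM and DCN had 0 counts in all libraries. The other markers were low, with 0 to 3 counts of PTPRC and COL1A1, 71 to 137 of PECAM1 and 199.9 to 379.9 of CD68.

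None of the 10 genes was past both thresholds, 0.05 for the FDR and 1.5 for the fold change, with edgeR (quasi-likelihood test with Benjamini-Hochberg adjustment) or with DESeq2. Of all 14104 genes and reporters tested, 0.674% were past them with edgeR (0.362% higher and 0.312% lower) and 2.33% with DESeq2. Their adjusted p-values were between 0.348 (NKD1) and 0.963 (GLUL). The fitted log2 fold change was below 0 for 9 of the 10 genes, as it was for 49.3% of all genes, and above 0 for TCF7 alone. The median of the 10 was -0.16, whereas that of all genes was 0.0057. NKD1 was the 1 gene at an unadjusted p-value under 0.05, a level reached by 11.9% of all genes, and 1 gene of the 10 reached it with DESeq2, against 12.4% of all genes. Without sedanolide 3, LGR5, NKD1, ZNRF3 and NOTUM reached it (unadjusted p from 0.0103 to 0.0335 and adjusted p from 0.147 to 0.189 in edgeR), all with sedanolide lower. In that fit 23% of all genes did (12.2% with sedanolide lower). Both of its treated libraries were of side B and controls 1 and 2 of side A, so that it does not tell condition and side apart. LGR5, ZNRF3 and NOTUM were also higher on side A than on side B. The 95% intervals of AXIN2, NKD1, RNF43, TBX3 and GLUL lay inside a 1.5-fold change in both directions. Those of the other 5 genes reached past 1.5-fold, toward lower levels in LGR5, NOTUM, ZNRF3 and SP5 and toward higher levels in TCF7, so that a change of this size was not excluded for them.

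**Figure D1:**
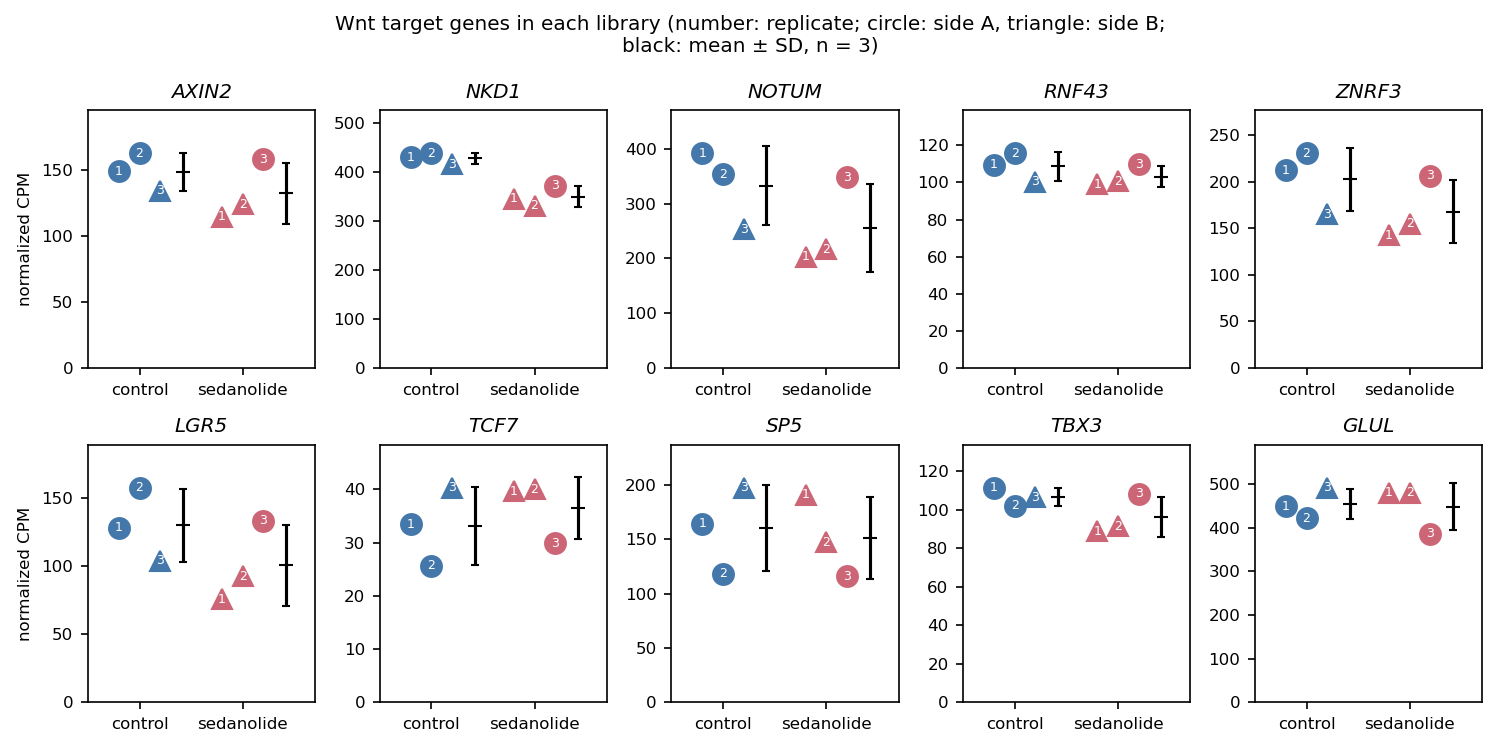
Normalized CPM (y axis, from 0) of each Wnt target gene in each library, with the replicate number in the symbol, circles for side A and triangles for side B, and the mean ± SD of 3 libraries in black. The groups overlap in every gene but NKD1, and in 7 of the 10 genes sedanolide 3 lies above the other sedanolide libraries.

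The expression levels of the 10 genes spanned a wide range. In the deposited TPM values, which are corrected for transcript length, GLUL had the highest level in control cells (507 ± 26.4 TPM, SD, n = 3), and NOTUM followed at 245 ± 61.9 TPM. SP5 at 137 ± 26.7 TPM and NKD1 at 120 ± 14.6 TPM came next, and their libraries overlapped. AXIN2 at 70.3 ± 12.3 TPM lay below NKD1 and above ZNRF3 without overlap. The levels of ZNRF3, LGR5, RNF43 and TBX3 ran from 47.8 to 36.1 TPM, and neighbors in this order overlapped. TCF7 was lowest at 17.1 ± 2.18 TPM. In sedanolide-treated cells the first 6 places were the same, from GLUL at 471 ± 28.9 TPM to ZNRF3 at 37.6 ± 6.79 TPM, and RNF43 stood above LGR5 with overlapping libraries.

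**Figure D2:**
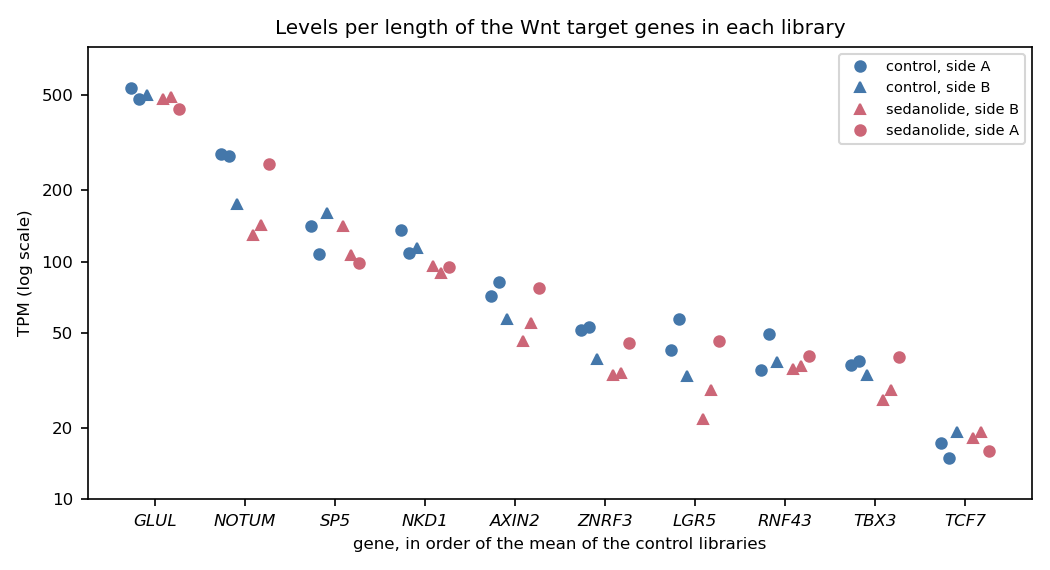
TPM (y axis, log scale) of the Wnt target genes in each library, in the order of the mean of the control libraries, with controls in blue, sedanolide in red, circles for side A and triangles for side B. GLUL lies near 500 TPM and TCF7 below 20 TPM in all 6 libraries, and ZNRF3, LGR5, RNF43 and TBX3 overlap.

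AXIN2 and NKD1 act as brakes inside the cell. AXIN2 (ENSG00000168646, chromosome 17 of GRCh38, 65528563 to 65561648) is a scaffold of the destruction complex and a widely used readout of beta-catenin activity. Its expression was 149, 163 and 134 CPM in controls 1 to 3 and 115, 124 and 158 CPM in sedanolide 1 to 3. Sedanolide 3 lay among the controls, whereas the other sedanolide libraries lay below them. The log2 fold change was -0.17 (standard error 0.157, 95% interval -0.54 to 0.20, edgeR adjusted p = 0.711), and it was 0.024 within side A and -0.17 within side B. NKD1 (ENSG00000140807, chromosome 16, 50548396 to 50649249) binds Dishevelled and dampens the signal. It had 431, 439 and 416 CPM in controls 1 to 3 and 346, 332 and 373 CPM in sedanolide 1 to 3. All of its sedanolide libraries lay below all of its controls, which was so for no other gene of the 10. Groups did not overlap in 18.3% of all genes, with sedanolide lower in 9.66% and higher in 8.69%. The log2 fold change of NKD1 was -0.29 (standard error 0.107, 95% interval -0.54 to -0.041), with an unadjusted p-value of 0.0282 and an adjusted p of 0.348 from edgeR. It was -0.22 within side A and -0.30 within side B, and between -0.34 and -0.26 when any 1 library was left out. Across the other settings its adjusted p-values ran from 0.122 to 0.921.

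NOTUM is a secreted enzyme that removes the lipid from Wnt ligands and so silences them. NOTUM (ENSG00000185269, chromosome 17, 81952507 to 81961840) had 392, 353 and 254 CPM in controls 1 to 3 and 203, 217 and 348 CPM in sedanolide 1 to 3. Its libraries separated by side, with 348 to 392 CPM on side A and 203 to 254 CPM on side B. On each side the sedanolide values lay below the control values. Its log2 fold change, -0.38, was the most negative of the 10 and had the largest standard error, 0.254 (95% interval -0.98 to 0.22, edgeR adjusted p = 0.606). It was -0.098 within side A and -0.28 within side B. When 1 library was left out, it was between -0.67 (without sedanolide 3) and -0.24 (without sedanolide 1).

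RNF43 and ZNRF3 are related ubiquitin ligases that remove Frizzled receptors from the cell surface, and LGR5 is a receptor for R-spondins that blocks these ligases. RNF43 (ENSG00000108375, chromosome 17, 58353676 to 58417595) varied least, with 109.6, 116 and 100.4 CPM in controls 1 to 3 and 98.9, 101 and 109.7 CPM in sedanolide 1 to 3. Its log2 fold change was -0.075 (95% interval -0.34 to 0.19), and -0.039 and -0.0087 within sides A and B. ZNRF3 (ENSG00000183579, chromosome 22, 28883572 to 29057488) had 212, 230.5 and 165 CPM in controls and 142, 155 and 206 CPM in sedanolide 1 to 3. Sedanolide 3 was again close to controls 1 and 2, and control 3 was close to sedanolide 1 and 2. The log2 fold change of ZNRF3 was -0.27 (95% interval -0.72 to 0.18), and -0.10 and -0.15 within sides A and B. LGR5 (ENSG00000139292, chromosome 12, 71439798 to 71586310) had 128, 157 and 104 CPM in controls and 75.7, 92.3 and 133 CPM in sedanolide 1 to 3, and again the libraries of side A were all above those of side B. Its log2 fold change was -0.37 (95% interval -0.94 to 0.21), and -0.091 and -0.31 within the sides.

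TCF7, SP5 and TBX3 encode transcription factors. TCF7 belongs to the TCF/LEF factors that bring beta-catenin to DNA, SP5 is a zinc finger factor induced by Wnt signals, and TBX3 is a T-box factor that is raised in liver tumors with active beta-catenin. TCF7 (ENSG00000081059, chromosome 5, 134114681 to 134151865) had 33.4, 25.6 and 40.3 CPM in controls 1 to 3 and 39.6, 39.97 and 29.8 CPM in sedanolide 1 to 3. It was higher in the libraries of side B than in those of side A, the opposite of NOTUM. Its log2 fold change was 0.14 (95% interval -0.33 to 0.61), and 0.026 and -0.018 within sides A and B. TCF7 shares 210 exon bases with SKP1 on the opposite strand, which had 463% of its counts, and the strand setting of the counting is not given in the sources used here. TBX3 (ENSG00000135111, chromosome 12, 114670255 to 114684175) had 111, 102 and 107 CPM in controls and 88.8, 91.3 and 108 CPM in sedanolide 1 to 3. The 2 lowest libraries of TBX3 were sedanolide 1 and 2, and its log2 fold change was -0.15 (95% interval -0.44 to 0.14), 0.020 within side A and -0.24 within side B.

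SP5 (ENSG00000204335, chromosome 2, 170715337 to 170718078) had 165, 119 and 198 CPM in controls 1 to 3 and 191, 147 and 116 CPM in sedanolide 1 to 3. The groups overlapped, and the log2 fold change was -0.081 (95% interval -0.66 to 0.49). Within sides A and B it was -0.27 and -0.24, so that sedanolide was below control on both sides although the groups did not separate. Its sign turned when control 3 or sedanolide 3 was left out (0.10 and 0.078).

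The promoter of SP5 is shown since it holds the letters of the TCF/LEF motif at several places. Promoter windows of RefSeq (GRCh38.p14, 250 bases before to 50 bases after a start) were found for 4 of the 10 genes, GLUL, RNF43, SP5 and TCF7, with 7 windows in all. They were searched on both strands for ATCAAAG and for the variants that begin with TT, AA or TA in place of AT, such as TTCAAAG in SP5. Of all 35116 windows, 13.8% held at least 1 match and 0.179% at least 3. The SP5 window had 3 matches, 1 window of TCF7 had 1, and the others had none. A match is a description of the letters and not a binding site. In the sequences below, on the strand of the gene, capitals mark the matches in either orientation, and the first window lies at chr2:170715087-170715386 (plus strand) and the second at chr5:134123368-134123667 (plus strand).
SP5: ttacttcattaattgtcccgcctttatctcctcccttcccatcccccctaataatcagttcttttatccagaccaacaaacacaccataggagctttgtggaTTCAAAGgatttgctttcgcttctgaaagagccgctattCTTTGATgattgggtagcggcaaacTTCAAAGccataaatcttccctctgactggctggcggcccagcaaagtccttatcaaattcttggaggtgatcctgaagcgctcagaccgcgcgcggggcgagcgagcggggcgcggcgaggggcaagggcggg
TCF7: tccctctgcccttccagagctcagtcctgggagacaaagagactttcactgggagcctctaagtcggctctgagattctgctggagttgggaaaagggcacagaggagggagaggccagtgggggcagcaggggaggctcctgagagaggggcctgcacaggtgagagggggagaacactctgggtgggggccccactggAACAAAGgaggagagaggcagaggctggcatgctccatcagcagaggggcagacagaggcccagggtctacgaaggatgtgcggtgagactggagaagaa
In SP5 the matches start 148, 109 and 84 bases before the start of the gene, the middle one on the opposite strand, and in TCF7 the match starts 50 bases before the start of the transcript that this window belongs to.

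GLUL (ENSG00000135821, chromosome 1, 182378098 to 182392206) encodes glutamine synthetase, which makes glutamine from glutamate and ammonia. It had 449, 421.5 and 491 CPM in controls 1 to 3 and 479, 479.5 and 385 CPM in sedanolide 1 to 3. The lowest library was sedanolide 3 and the highest was control 3, and the groups overlapped. The log2 fold change was -0.019 (standard error 0.134, 95% interval -0.33 to 0.30, edgeR adjusted p = 0.963). Within the sides it was -0.17 and -0.036. The 4 annotated GLUL pseudogenes had 0 counts in all libraries.

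The levels of most of the 10 genes differed between the sides of component 1. In 7 of the 10 genes the libraries of side A and side B did not overlap, as in 44.1% of all genes tested (21% higher on side A and 23.1% lower there). The component was computed from all genes, these 10 included, so that this is a description and not a test. AXIN2, RNF43, ZNRF3, LGR5 and NOTUM were higher on side A, by 1.12-fold (RNF43) to 1.62-fold (NOTUM) in mean CPM, and GLUL and TCF7 were lower there. CTNNB1 (beta-catenin) differed more between the sides than any of the 10 genes, with 294, 377 and 386 CPM in control 1, control 2 and sedanolide 3 and 146, 86.3 and 154 CPM in control 3, sedanolide 1 and sedanolide 2. Its part in the levels of the targets was not tested.

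**Figure D3:**
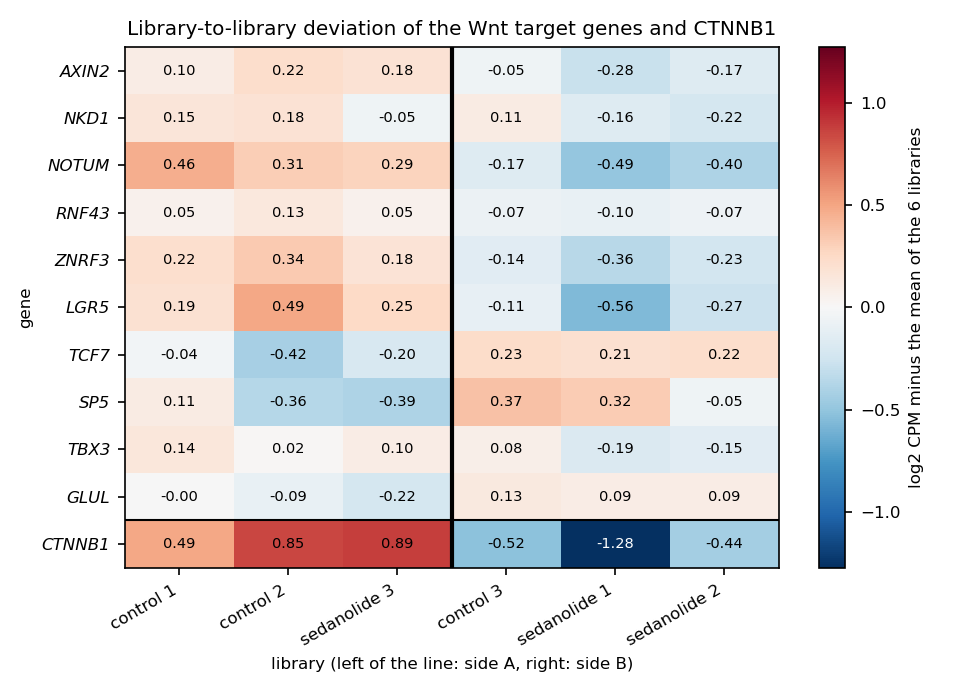
Deviation of log2 CPM from the mean of the 6 libraries (color and printed value) for the Wnt target genes and CTNNB1, with the libraries of side A left of the line and those of side B right of it. NOTUM, LGR5, ZNRF3, AXIN2 and RNF43 are above 0 on the left and below 0 on the right, as is CTNNB1, whereas TCF7 and GLUL show the opposite.

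Since side A holds 2 controls and 1 sedanolide library and side B the reverse, the comparison was repeated with the side added to the fit. None of the 10 genes was past both thresholds, against 2.7% of all genes (1.07% higher and 1.63% lower). The smallest adjusted p was 0.122 (NKD1) and 1 gene had an unadjusted p-value under 0.05, against 19.5% of all genes in this fit. The standard errors of all 10 genes were smaller than without the term, with a range of 0.083 to 0.148 in place of 0.107 to 0.254. The side was taken from these counts, so that the smaller errors and intervals of this fit are a description and not a test. The log2 fold change moved from -0.38 to -0.19 for NOTUM, from -0.37 to -0.20 for LGR5 and from -0.27 to -0.13 for ZNRF3. It moved away from 0 for SP5 (-0.25) and GLUL (-0.11). With the term, the 95% intervals of 9 of the 10 genes lay inside a 1.5-fold change, SP5 being the exception with a lower end of -0.59. Within side A the 10 log2 fold changes ran from -0.27 to 0.026 and 7 were below 0, and within side B they ran from -0.31 to -0.0087 and all 10 were. Control 3 is the only control on side B and sedanolide 3 the only treated library on side A, so that these values have no replicate check of their own.

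**Figure D4:**
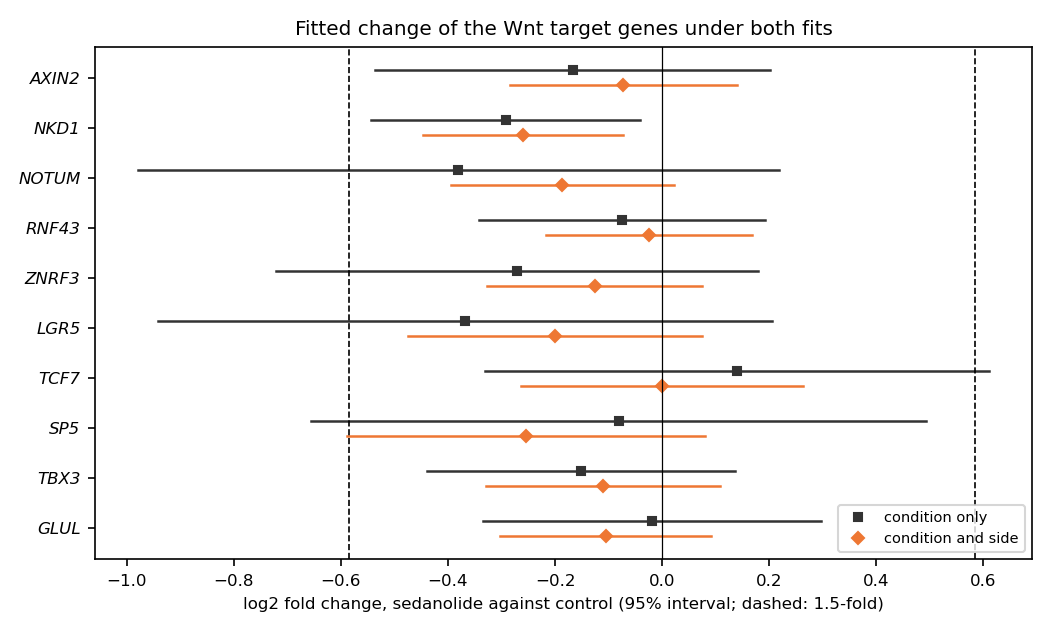
Fitted log2 fold change of each Wnt target gene with its 95% interval (x axis), with the condition as the only term (squares) and with the side of component 1 added (diamonds). All intervals but that of NKD1 include 0 in both fits, and with the side the intervals are narrower and 9 of 10 stay inside the dashed 1.5-fold lines.

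The other parts of the pathway were examined with lists of ligands, receptors, inhibitors, cytoplasmic and nuclear components, further targets and genes of liver zonation, 130 genes in all. Of these, 81 had enough counts to be tested, and their median log2 fold change was -0.11. At both thresholds 1 gene was higher and 1 was lower, 2.47% of those tested, against 0.674% of all genes (0.362% higher and 0.312% lower). At an unadjusted p-value under 0.05, 4 were higher and 14 were lower, 22.2% of those tested. Of all genes, 11.9% reached it (5.35% higher and 6.57% lower). The lists were chosen with earlier results of these data known, so that these shares are a description and not a test.

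Few ligands were expressed. Of 19 Wnt ligands, 2 (WNT3 and WNT11) had enough counts, and neither passed. WNT11 had 34, 46 and 29 counts in controls 1 to 3 and 17, 37 and 27 counts in sedanolide 1 to 3, and its log2 fold change was -0.71 (edgeR adjusted p = 0.325), and -0.90 and -0.52 within sides A and B. PORCN, which adds the lipid to Wnt ligands, had 62 to 99 counts and a log2 fold change of 0.089, whereas WLS, which carries the ligands to the surface, had 0 or 1 count in each library. The R-spondins RSPO2, RSPO3 and RSPO4 had 0 counts in all libraries, which allows up to 3 counts in each, a limit for counting error only.

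None of the 11 receptors of the Frizzled and LRP list with enough counts passed both thresholds with edgeR without the side, and their median log2 fold change was -0.097. LRP5, the coreceptor with the highest TPM of the list, had a log2 fold change of -0.00021 (95% interval -0.48 to 0.48). FZD3 had 17.1, 22.9 and 22.9 CPM in controls 1 to 3 and 29.4, 30.7 and 29.8 CPM in sedanolide 1 to 3, a log2 fold change of 0.51 (edgeR adjusted p = 0.228) with no overlap, and 0.59 and 0.39 within sides A and B. LGR4, a relative of LGR5 that also binds R-spondins, had 186, 231 and 174 CPM in controls and 106, 133 and 155 CPM in sedanolide 1 to 3. All sedanolide libraries of LGR4 were below all controls, with a log2 fold change of -0.59 (edgeR adjusted p = 0.269), -0.42 within side A and -0.56 within side B.

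Of the secreted inhibitors and their receptors, 7 of 15 were tested and none passed with edgeR without the side. DKK1, which blocks LRP5 and LRP6, had 44, 45 and 52 counts in controls 1 to 3 and 20, 33 and 28 counts in sedanolide 1 to 3, and its log2 fold change was -1.10 (standard error 0.242, edgeR adjusted p = 0.132). Within sides A and B it was -1.02 and -1.33. DKK1 was past both thresholds with DESeq2 (adjusted p = 0.0417). It was also past them in edgeR with the side as a term (adjusted p = 0.0320), which is a description since the side came from these same counts. KREMEN1, the receptor with which DKK proteins remove LRP6, had a log2 fold change of -0.31. FRZB, named after its values were seen, had a log2 fold change of -1.26 (edgeR adjusted p = 0.217), and -0.73 and -1.59 within sides A and B. Of the 7 genes tested, 5 were below 0 and 2 above.

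All 17 genes of the destruction complex and its regulators were tested, none passed, and none had an unadjusted p-value under 0.05. Their median log2 fold change was -0.00026. CSNK1D, a casein kinase with the highest TPM of this list, had a log2 fold change of -0.064 (95% interval -0.35 to 0.22).

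In the list of the nuclear complex, 15 of 16 genes were tested and none passed, with 3 lower at an unadjusted p-value under 0.05. CTNNBIP1, which keeps beta-catenin from TCF factors, had 75.8, 70.5 and 66.5 CPM in controls 1 to 3 and 54.9, 54.4 and 56.4 CPM in sedanolide 1 to 3, a log2 fold change of -0.36 (edgeR adjusted p = 0.251), and -0.37 and -0.28 within sides A and B. CTNNB1 had a log2 fold change of -0.38 with a standard error of 0.566, and of 0.21 and -0.34 within sides A and B. TCF7L2 had a log2 fold change of -0.17 (95% interval -0.62 to 0.27), and LEF1 had 0 to 2 counts, for which no fold change is given.

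Of the 11 further targets tested, FOSL1 was the 1 gene past both thresholds with edgeR, and FOSL1 and MYC passed with DESeq2. FOSL1 is a subunit of the AP-1 factor. It had 4.604, 3.98 and 4.41 CPM in controls 1 to 3 (76, 94 and 78 counts) and 8.55, 7.84 and 8.68 CPM in sedanolide 1 to 3 (159, 203 and 219 counts). Its mean rose from 4.33 ± 0.318 to 8.36 ± 0.453 CPM (SD, n = 3), with a log2 fold change of 0.95 (standard error 0.140, edgeR adjusted p = 0.0379). The change was 1.02 within side A and 0.89 within side B, but with any 1 of the 6 libraries left out the FDR threshold was missed (edgeR adjusted p from 0.0587 to 0.227, unadjusted p-values up to 0.00136). MYC, a growth-promoting factor, had 219, 213 and 163 CPM in controls 1 to 3 and 271, 286 and 344 CPM in sedanolide 1 to 3. Its groups did not overlap, and its log2 fold change was 0.60 (standard error 0.161), 0.67 within side A and 0.78 within side B. The adjusted p of MYC was 0.206 in the main edgeR fit and 0.0457 with DESeq2. It was 0.00239 in edgeR with the side as a term, which is a description since the side came from these same counts. CCND1, the gene of cyclin D1, had a log2 fold change of -0.20 (95% interval -0.67 to 0.26), and ID2, an inhibitor of helix-loop-helix factors, of -0.40 (edgeR adjusted p = 0.245).

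SLC13A3, a sodium-dependent dicarboxylate transporter, fell with sedanolide, and its mean went from 70.4 ± 4.79 to 36.1 ± 2.68 CPM (SD, n = 3). It was the 1 gene past both thresholds among 6 tested from the list of targets around the central vein. Controls 1 to 3 had 73.8, 72.6 and 64.9 CPM and sedanolide 1 to 3 had 34.2, 34.99 and 39.2 CPM, a log2 fold change of -0.96 (standard error 0.117, edgeR adjusted p = 0.0241). The change was -0.90 within side A and -0.91 within side B. With 1 library left out, SLC13A3 was past the FDR threshold when that library was sedanolide 3 (edgeR adjusted p = 0.0215) and missed it for each of the other 5, with adjusted p-values up to 0.225. CYP27A1, an enzyme of bile acid synthesis with the highest TPM of this list, had a log2 fold change of 0.31. CYP2E1 and CYP1A2, classical genes of this zone, had at most 2 counts and 0 counts.

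Of 10 genes tested from the opposite, periportal zone, none passed both thresholds with edgeR, HAL and CDH1 passed with DESeq2, and the median log2 fold change was -0.58. HAL, an enzyme of histidine breakdown, had 7.88, 7.75 and 5.03 CPM in controls 1 to 3 and 2.63, 2.39 and 3.45 CPM in sedanolide 1 to 3, a log2 fold change of -1.28 (edgeR adjusted p = 0.0830). The change of HAL was -1.18 within side A and -1.002 within side B. HAL was past both thresholds with DESeq2 (adjusted p = 0.00107) and in edgeR with no filter on low counts (adjusted p = 0.0201). It was also past them in edgeR with the side as a term (adjusted p = 0.00514), which is a description since the side came from these same counts. SLC7A2, a transporter of basic amino acids with the highest TPM of this list, had a log2 fold change of -0.43 (edgeR adjusted p = 0.532).

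**Figure D5:**
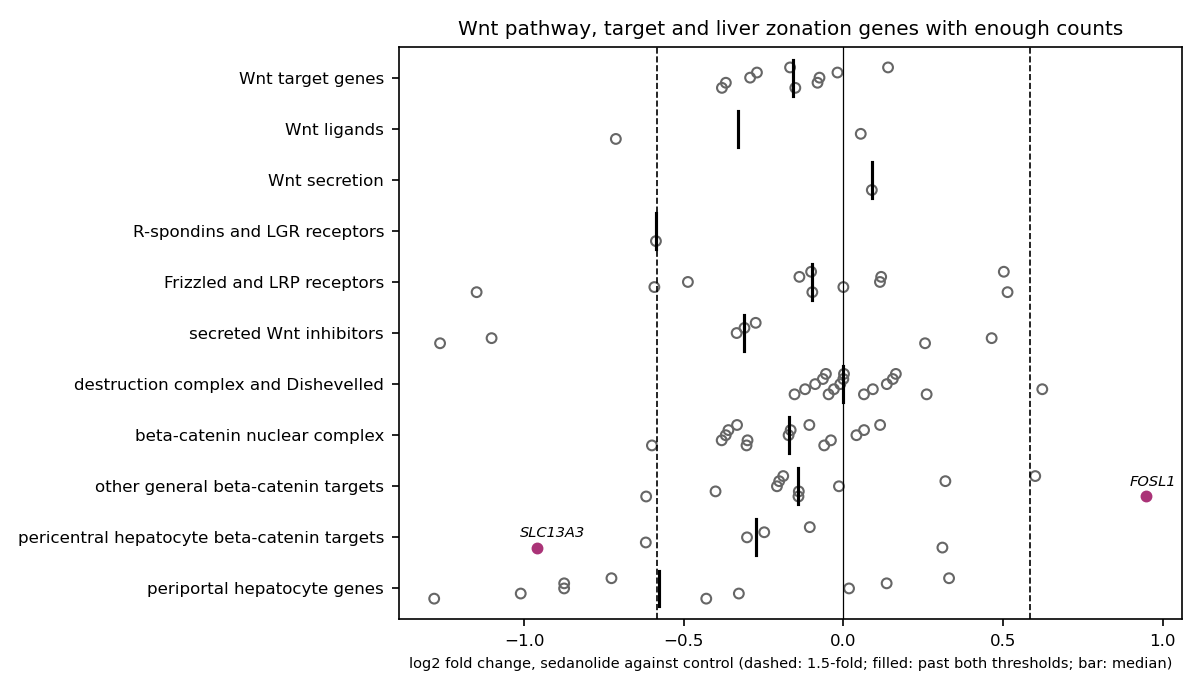
Log2 fold change of each tested gene (x axis) by list, with the median of each list as a bar, the 1.5-fold limits dashed and genes past both thresholds filled. The 2 filled genes are FOSL1 at 0.95 and SLC13A3 at -0.96, and the Wnt target genes all lie inside the dashed lines.

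When the side was added to the fit, 7 of the 81 genes of these lists were past both thresholds, 3 higher and 4 lower (8.64%, against 2.7% of all genes). They were FOSL1, MYC and FZD7, which were higher, and DKK1, SLC13A3, HAL and CDH1, which were lower. The side came from these same counts, and the lists were chosen with earlier results known. Both shares are therefore a description and not a test. FZD7 and CDH1 are named after their values were seen. FZD7, a Frizzled receptor, had a log2 fold change of 0.63 in this fit and 0.50 without the term. CDH1 encodes E-cadherin, which binds beta-catenin at the cell membrane. It had 95.5, 104 and 62.3 CPM in controls 1 to 3 and 34.5, 38.3 and 56.9 CPM in sedanolide 1 to 3, with a log2 fold change of -0.79 in this fit (edgeR adjusted p = 0.00257) and -1.01 without the term (adjusted p = 0.186). With DESeq2, CDH1 passed as well (adjusted p = 0.0185), and within sides A and B the change was -0.81 and -0.78.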

How the data were processed

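According to the methods and the labels, reads of 150 bp from directional libraries of captured mRNA were checked with FastQC, trimmed with Trimmomatic, aligned to GRCh38 with STAR and quantified with RSEM, with versions and annotation not given in the sources used here. The authors deposited expected counts of RSEM without normalization and a table of log2(TPM + 1) for 11006 features. Symbols of 61369 genes and positions were taken from GENCODE 44. Rounded counts passed filterByExpr, were scaled by TMM and entered edgeR 4.0.16 (R 4.3.3), whose robust quasi-likelihood test had the condition as the only term. All 14104 genes and reporters were adjusted together by Benjamini-Hochberg. Other settings were DESeq2 1.42.0 (the tool of the study), other scalings and filters, the replicate number or the side as a term, and leaving out each library. The log2 TPM table was tested with limma 3.58.1. Standard errors come from the F statistics of the fit. The 95% intervals also use its total degrees of freedom, which add those borrowed across all genes to the residual ones. Values are mean ± SD of 3 libraries.

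The 10 genes and the lists were chosen with earlier results of these data known. Of each list, the genes past both thresholds, those with the smallest unadjusted p-value under 0.05 in each direction and the gene with the highest TPM are named, together with CTNNB1, TCF7L2, LEF1, MYC and CCND1. The procedure was tested on simulated data. All 6 libraries entered the comparison, and libraries of a condition differed by more than sampling noise.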

Additional observations from a re-analysis of the deposited data

How the results depend on the processing

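None of the 10 Wnt target genes was past both thresholds in any of the 15 other settings. Their log2 fold changes kept their direction in 145 of 150 values, and the other 5 came from fits that each left out a library, where GLUL ran from -0.080 to 0.079, SP5 from -0.28 to 0.10 and TCF7 from -0.017 to 0.31. The median of the 10 was between -0.28 (without sedanolide 3) and -0.13 in these fits, and -0.25 in the TPM table with a pseudocount of 1 (-0.246) and of 0.1 (-0.248), where the median of all genes was -0.074 and -0.079. The number of all genes past both thresholds was 95, and it was 328 with DESeq2, 158 with no filter on low counts, 381 with the side as a term and 61 in the TPM table with a pseudocount of 1. It was 0 to 136 when a library was left out, with 0 without control 1 and without sedanolide 2 (with edgeR, 1067 and 889 had an unadjusted p below 0.05), 8 without control 2, 13 without sedanolide 1 and 29 without control 3. Of the genes of the pathway lists, 2 passed, and 6 passed with DESeq2, 7 with the side as a term, 1 in the TPM table with either pseudocount and 0 to 1 when a library was left out, the 1 being SLC13A3 without sedanolide 3. With the replicate number as a term (replicate block), 0 of all genes, 0 of the pathway lists and 0 of the 10 genes passed (with edgeR, 772 had an unadjusted p below 0.05, and DESeq2 without the block gave 328). The deviations of libraries with the same number were negatively correlated (-0.13, -0.30 and -0.73), so that the values show no likeness by number. Whether libraries of the same number were handled together is not given in the sources used here. Each of the 10 genes had at least 552 counts in every library, and what set the width of their intervals was not tested.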

Other observations

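Markers of the hepatocyte lineage belong to no comparison above. By the sign of the fitted log2 fold change, 9 of 10 were lower in sedanolide-treated cells, as were 49.3% of all genes. None was past both thresholds in edgeR, and 3 had an unadjusted p-value under 0.05, against 11.9% of all genes. The libraries of side A and side B did not overlap in 6 of the 10 markers (5 higher on side A), against 44.1% of all genes. AFP, a fetal serum protein often made by liver tumors, had 13494, 18439 and 7880.1 CPM in controls 1 to 3 and 4965, 7324 and 13262 CPM in sedanolide 1 to 3, so that the libraries of side A were highest, as in CTNNB1. ALB (albumin) had 1218, 1249 and 1039 CPM in controls 1 to 3 and 803, 914 and 881 CPM in sedanolide 1 to 3. Its groups did not overlap, as in 18.3% of all genes, and its log2 fold change was -0.43 (edgeR adjusted p = 0.241). TTR (transthyretin) had 39.3, 39.4 and 37.8 CPM in controls and 29.8, 24.6 and 26.1 CPM in sedanolide 1 to 3, and its log2 fold change was -0.53 (edgeR adjusted p = 0.133).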
